A study of Triticum aestivum with 18 samples.

Results

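The genes described here encode factors of pre-mRNA splicing and of translation that the array annotation of a wheat aluminium (Al) study names. Members are all probe rows whose symbol, or whose synonym in a RefSeq gene table, is U2AF65a, Eif4B, TEF1, RPL9 or RPS29. These 5 genes are covered by 11 of the 45220 probe rows, among 996 rows (553 genes) that carry a single gene symbol, with 1 probe for U2AF65a, 2 for Eif4B, 6 for TEF1, 1 for RPL9 and 1 for RPS29. RPL9 and RPS29 were found through their synonyms, because the annotation lists both under LOC numbers. All 6 TEF1 probes are annotated with the same sequence record, as are both Eif4B probes, so probes of 1 gene are repeated readings and not replicates of a condition. Bread wheat is polyploid, and which near-identical gene copies a probe picks up was not tested.

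In an early step of splicing, U2AF binds the end of an intron, where its large subunit, the U2AF65 protein, holds the polypyrimidine tract ahead of the 3′ splice site. Translation starts when the initiation factors eIF4E, eIF4A and eIF4B bring the small ribosomal subunit to the capped mRNA, with eIF4B stimulating the RNA helicase eIF4A, and eIF2 delivering the initiator tRNA. TEF1 encodes an elongation factor 1-alpha, the protein that brings aminoacyl-tRNA to the translating ribosome, and is among the most abundant transcripts of growing plant tissue. RPL9 and RPS29 encode proteins of the large and the small ribosomal subunit. The RPL9 row has CL9 as its other synonym, and the files do not say whether the wheat protein joins the cytosolic or an organelle ribosome.

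The study measured total RNA of wheat root apices in 6 groups of 3 samples: wheat-rye addition line 3R with Al and without Al, addition line 6R with Al and without Al, and cv Chinese Spring (CS) with Al and without Al. An addition line carries the complete wheat genome plus 1 pair of chromosomes from rye, here 3R or 6R, so it differs from CS by many genes at once. All seedlings grew in an acid nutrient solution of pH 4.0. Al seedlings spent the 24 h before sampling, at an age of 5 days, in that solution with 200 µM AlCl3 added, and control seedlings spent them in the solution alone. A sample pooled 9 root tips of 1 cm, and the labels call the 3 samples of a group biological replicates. In such pooled tips, fewer cells of a type and less RNA per cell cannot be told apart.

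Each of the 9 arrays took an Al and a control sample of 1 replicate, in different dyes, Cy3 and Hyper 5. Al was in Hyper 5 on 1 array of each line (replicate 2 of 3R, replicate 1 of 6R, replicate 2 of CS) and in Cy3 on the other 6 arrays. Values are log2 intensities, with sample medians of 7.09 in 3R, 7.22 in 6R and 7.33 in CS. The lowest value of the table was 5.62 and the highest 15.73, and 37.6% of rows averaged under 6.3, which is treated here as near the floor. Replicates of a group correlated at 0.941 to 0.98 over all rows. Of the tissue markers, 3 of 6 histone probes (dividing cells) averaged over 6.5 in every group, with sample means over the list of 8.76 to 10.02. Of 28 probes for grain endosperm proteins, 2 to 5 did so. Of 23 probes for photosynthesis proteins of green cells, 20 to 22 did so in these root samples, with sample means of 9.63 to 10.25 in 3R Al, 9.66 to 10.02 in 3R control, 9.40 to 10.45 in 6R Al, 9.10 to 10.02 in 6R control, 8.81 to 10.23 in CS Al and 8.94 to 9.62 in CS control samples. Averaged over the lines, 5 of these 23 probes rose and 4 fell with Al, and their median change was 0.32 in 3R, 0.44 in 6R, 0.50 in CS and 0.40 over the mean. Their part in the results below was not tested.

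Changes are given as log2 ratios, Al over control on the same array, averaged over the arrays of a line with a common dye effect taken off in limma. It is called where the p adjusted by Benjamini-Hochberg over all 45220 rows is under 0.05, and all adjusted p below are of this kind unless said otherwise. U2AF65a rose with Al in all lines, with its smallest value in 3R. Of 2 Eif4B probes, 1 fell in all lines, and of 6 TEF1 probes 3 fell in 6R and 2 in CS. Without the dye term, no member was called in any single line. Of all rows, 1691 were then called in 3R, 4430 in 6R and 3912 in CS. With the dye term, 2 of 11 member probes were called in 3R, 1 higher and 1 lower. Of all rows, 14.9% were called there, 7.71% higher and 7.19% lower. In 6R, 5 were called, 1 higher and 4 lower, against 27.0% of all rows, 13.7% higher and 13.3% lower. In CS, 4 were called, 1 higher and 3 lower, against 22.9% of all rows, 11.6% higher and 11.4% lower. Over the mean of the 3 lines, 1 rose and 5 fell, so that 6 of 11 were called against 36.2% of all rows, 17.2% higher and 19.0% lower. The median change of the 11 probes was -0.35 over the mean of the lines, and that of all rows was -0.006. Because 6 of the 11 are repeated readings of TEF1, which gave 4 of the 5 lower calls, these counts and this median rest mostly on 1 gene. They do not show a shift of the 5 genes.

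**Figure D1:**
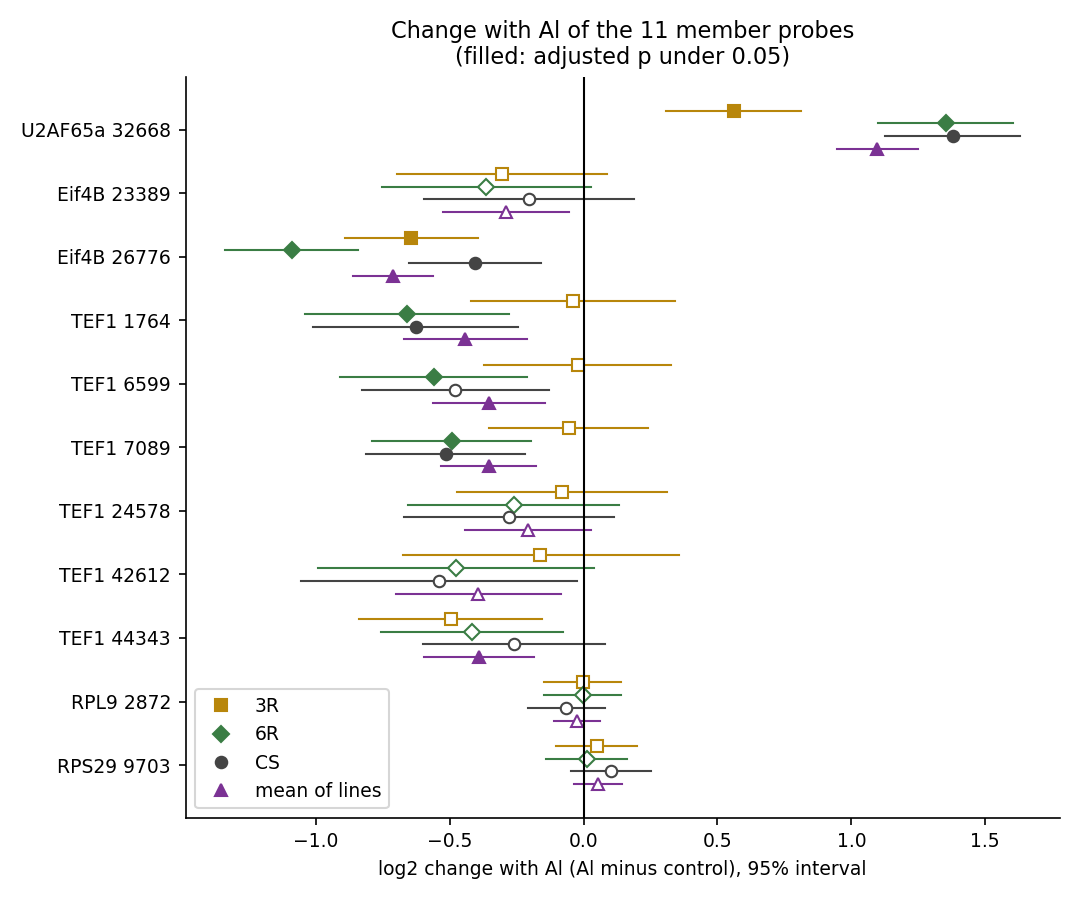
Log2 change with Al (x axis, Al minus control, 95% interval of the limma fit) of each of the 11 member probes (rows), for 3R, 6R, CS and the mean of the lines, with filled symbols where the adjusted p was under 0.05. U2AF65a is the only member to the right of 0 beyond its interval, from 0.56 in 3R to 1.38 in CS, and the intervals of RPL9 and RPS29 include 0 throughout.

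U2AF65a, the splicing factor subunit, was higher in Al than in control samples of every line. Its log2 intensity was 7.17, 7.74 and 7.23 in the 3 Al samples of 3R, against 7.01, 6.81 and 7.14 in the 3R control samples. In 6R it was 8.99, 8.004 and 8.71 in Al samples, against 7.09, 7.15 and 7.91 in control samples. In CS it was 7.995, 8.89 and 8.58 in Al samples, against 7.43, 6.92 and 7.48 in control samples. Al and control samples did not overlap in any line, which held for 13.9% of all rows in 3R, 16.8% in 6R and 15.2% in CS.

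The fitted rise of U2AF65a was 0.56 ± 0.11 in 3R (SE, n = 3 arrays, 1.47-fold, adjusted p = 0.0128 in limma). In 6R it was 1.35 ± 0.11 (2.55-fold, adjusted p = 0.000111 in limma), and in CS 1.38 ± 0.11 (2.60-fold, adjusted p = 0.000104 in limma). Averaged over the lines it was 1.10 ± 0.07 (n = 9 arrays, 2.14-fold, adjusted p = 1.03e-05 in limma). The ratio was above 0 in 9 of 9 arrays as deposited, from 0.09 in replicate 3 of 3R to 1.97 in replicate 2 of CS. An exact two-sided sign-flip permutation test of these 9 ratios, which leaves the dye effect in them, gave p = 0.00391, the smallest it can give. The dye difference of U2AF65a was -1.01 ± 0.13 (adjusted p = 0.000552 in limma). After adjustment over all rows, the sign-flip test called 7944 of 45220 rows. In size, the change stood at the 87.3 percentile of all rows in 3R, the 95.4 percentile in 6R and the 95.9 percentile in CS. The call over the mean of the lines held in all 16 alternative settings. The call in 3R held in 4 of 10 and was lost without any 1 of its 3 arrays: the rise was 0.51 without replicate 1, 0.68 without replicate 2 and 0.54 without replicate 3, with adjusted p from 0.0651 to 0.0786.

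**Figure D2:**
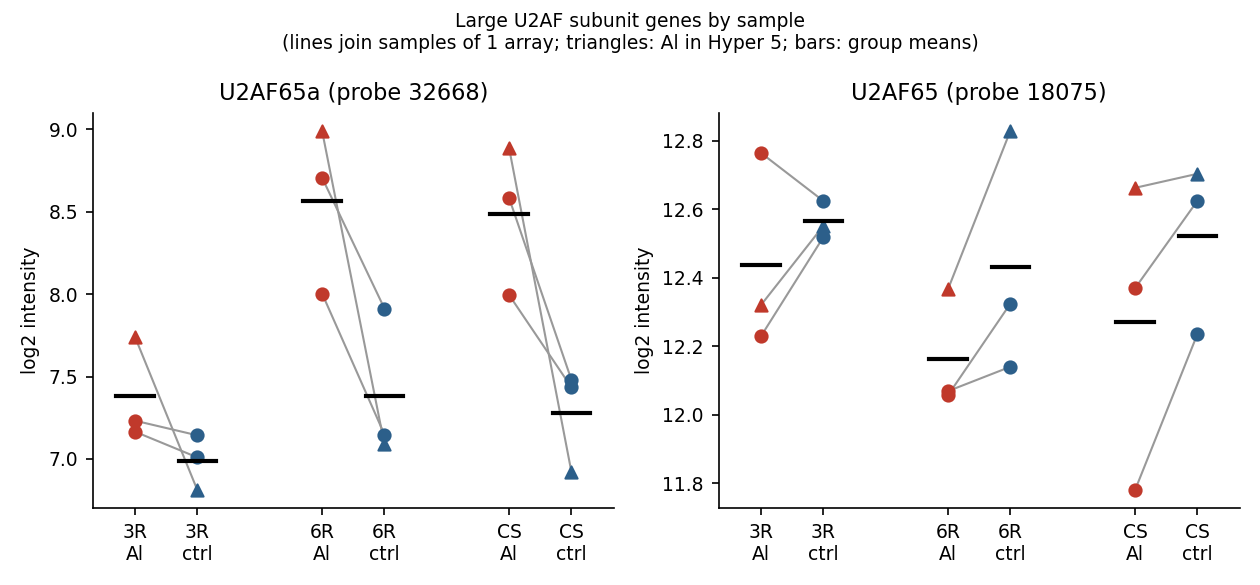
Log2 intensity (y axis) of U2AF65a (left) and of probe 18075 of U2AF65 (right) in each sample by line and treatment, with lines joining the samples of 1 array, triangles where the Al sample was in Hyper 5 and bars at the group means. All 9 lines of the left panel run down from Al to control, and 8 of 9 lines of the right panel run the other way.

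The response of U2AF65a itself was compared between lines. The rise in 3R was smaller than that in CS by 0.82 on the log2 scale, a difference of -0.82 ± 0.15 with a 95% interval of -1.17 to -0.47 (adjusted p = 0.0433 in limma). No other member was called in this comparison, where 1.84% of all rows were called. Between 3R and 6R the difference was of a like size, -0.79 ± 0.15, and did not pass (adjusted p = 0.0661 in limma, with 0 of 11 members called and 1.09% of all rows). Between 6R and CS it was -0.03, with a 95% interval of -0.38 to 0.32 (0 of 11 members called, 0.318% of all rows). The difference of 3R and CS kept its sign in all 12 alternative settings and its call in 3. It was no longer called without replicate 1, 2 or 3 of 3R (-0.87, -0.72 and -0.84) or without replicate 2 or 3 of CS (-0.76 and -0.69), where adjusted p ran from 0.112 to 0.188, and it was called at -0.99 without replicate 1 of CS (adjusted p = 0.0145).

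The labels name a scanner file per array, and the prefix of that name is taken here as the slide. Replicates 1 and 2 of 3R and of 6R shared slide 1. Those of CS were on slide 2, and replicate 3 of every line was on slide 3. On slide 3 alone, the dye-corrected ratio of U2AF65a was 0.59 in 3R, 1.30 in 6R and 1.61 in CS. On slide 1 it averaged 0.54 in 3R and 1.38 in 6R, and on slide 2 it averaged 1.26 in CS. The order with 3R lowest was thus present on both slides that held more than 1 line. Because slide 2 held CS alone, a fit with slide as a further term compares 3R with CS through slide 3, and it gave -1.06 (adjusted p = 0.34).

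Levels between lines were compared on the single channels, with the array as a random block. The deposited values look normalized within each line apart, so these levels rest on samples that were not scaled together. In Al samples, U2AF65a averaged 7.38 ± 0.31 in 3R, 8.57 ± 0.51 in 6R and 8.49 ± 0.45 in CS (SD, n = 3 each). It was lower in 3R than in CS by a log2 difference of -1.11 ± 0.20 (adjusted p = 0.00416 in limma) and lower in 3R than in 6R by -1.19 ± 0.20 (adjusted p = 0.00369 in limma). It did not differ between 6R and CS beyond the spread of samples (0.08, 95% interval -0.34 to 0.50). After all 18 samples were quantile normalized together, the difference of 3R and CS was -0.81 (adjusted p = 0.0306), in the range of 0.00288 to 0.0896 over its alternatives. In control samples, U2AF65a averaged 6.99 ± 0.17 in 3R, 7.38 ± 0.46 in 6R and 7.28 ± 0.31 in CS, and the difference of 3R and CS was -0.29 (95% interval -0.71 to 0.13, adjusted p = 0.593). The order of its 6 groups from high to low was 6R Al, CS Al, 6R control, 3R Al, CS control and 3R control, and the middle 3 groups overlapped in their samples. Over all members, 2 of 11 were called different in level between 3R and CS Al samples against 6.38% of all rows, 1 between 3R and 6R Al samples against 3.58%, and 0 between 6R and CS Al samples against 0.429%. In control samples, 0 of 11 were called between 3R and CS (2.87% of all rows), between 3R and 6R (1.23%) and between 6R and CS (0.0619%).

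The other splicing gene found by a fixed list of symbol prefixes is U2AF65, whose synonym in the RefSeq table is U2AF65B, with 3 probes. Splicing genes under other symbols were not searched for. The annotation lists it as a gene of its own for the same large subunit. None of its 3 probes was called in any single line, and over the mean of the lines probe 18075 fell by 0.22 ± 0.07 (adjusted p = 0.0497 in limma, ratio below 0 in 8 of 9 arrays). Probe 18075 read 12.76, 12.32 and 12.23 in Al samples of 3R, against 12.62, 12.55 and 12.52 in control samples. Al and control samples of this probe overlapped in all 3 lines. The other probes changed by -0.002 (probe 20770, 95% interval -0.24 to 0.23) and by -0.01 (probe 30963, 95% interval -0.32 to 0.29).

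The ratio of U2AF65a was above that of each U2AF65 probe in 9 of 9 arrays. The mean difference of ratios was 1.14 ± 0.75 to probe 18075, 1.16 ± 0.38 to probe 20770 and 1.02 ± 0.47 to probe 30963 (SD, n = 9 arrays). Each gave an exact two-sided sign-flip permutation p of 0.00391, the smallest possible, and 0.00521 after adjustment over the 4 probe pairs compared. The pairs were chosen with the changes of the probes known, so these p-values restate that choice and are no independent test.

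Among 542 other named genes, the rows whose dye-corrected ratios followed those of U2AF65a most closely over the 9 arrays were LOC606367 (Pearson r = 0.935), LOC542845 (r = 0.932) and LOC543431 (r = 0.896). The changes of these 3 rows over the mean of the lines were 0.37, 1.16 and 0.03. The likeness is one of order among arrays and not of size. The 9 points share their lines, slides and a common dye term, and the 3 rows were picked as the closest of 542 genes. They cannot show a shared course. No function is given for these LOC numbers in the tables used.

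Eif4B, the helicase-stimulating initiation factor, was called at 1 of its 2 probes: probe 26776 fell in every line, and probe 23389 was called in none. Probe 26776 read 7.34, 8.37 and 7.26 in Al samples of 3R, against 8.83, 8.35 and 8.40 in control samples. In 6R it read 9.15, 8.48 and 6.91 in Al samples, against 9.66, 10.23 and 8.60 in control samples. In CS it read 7.17, 8.69 and 7.32 in Al samples, against 8.10, 8.31 and 8.67 in control samples. The groups overlapped in all lines, and the highest Al sample of each line was the one labelled with Hyper 5.

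After dye correction, probe 26776 of Eif4B fell by 1.09 ± 0.11 in 6R (SE, n = 3 arrays, 2.13-fold, adjusted p = 0.000286 in limma). The fall was 0.64 ± 0.11 in 3R (1.56-fold, adjusted p = 0.00671 in limma) and 0.41 ± 0.11 in CS (1.32-fold, adjusted p = 0.0292 in limma). Averaged over the lines it fell by 0.71 ± 0.06 (1.64-fold, adjusted p = 8.4e-05 in limma), with a deposited ratio below 0 in 7 of 9 arrays, both exceptions having Al in Hyper 5. The exact sign-flip permutation test of the deposited ratios gave p = 0.0156 before adjustment and 0.0719 after adjustment over all rows. The responses differed by -0.69 between 6R and CS (95% interval -1.03 to -0.34) and by 0.45 between 3R and 6R (0.10 to 0.79), and neither difference passed over all rows (adjusted p = 0.166 and 0.298 in limma). On slide 3, the dye-corrected ratio was -0.47 in 3R, -1.01 in 6R and -0.67 in CS. The call in 3R was lost without replicate 2 of 3R (-0.63, adjusted p = 0.0911), and that in CS without replicate 2 (-0.50, adjusted p = 0.057) or replicate 3 (-0.27, adjusted p = 0.137) of CS. Without the dye term the probe was called in no line (adjusted p = 0.446 in 3R, 0.112 in 6R and 0.538 in CS). The same held without the replicate block (0.949, 0.327 and 0.89). The slide term ended the call in 3R (adjusted p = 0.0764), and a trended robust prior that in CS (0.0825). The dye difference of this probe was -1.36 ± 0.13 (adjusted p = 0.000123 in limma), larger in size than its fitted changes. Levels of probe 26776 were not called different between lines: control samples averaged 8.53 ± 0.27 in 3R, 9.50 ± 0.83 in 6R and 8.36 ± 0.29 in CS.

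Probe 23389 of Eif4B read 12.19, 12.99 and 12.01 in Al samples of 3R, against 13.53, 12.38 and 13.19 in control samples. In 6R it read 12.92, 12.53 and 12.03 in Al samples, against 12.46, 13.87 and 13.24 in control samples, and in CS 11.71, 13.27 and 12.69 in Al samples, against 13.48, 12.23 and 13.57 in control samples. In each line the array with Al in Hyper 5 ran against the other 2, with the Al sample higher there and lower on both arrays with Al in Cy3. Its dye-corrected change over the mean of the lines was -0.29 ± 0.10 (95% interval -0.53 to -0.06, adjusted p = 0.0587 in limma). Without CS replicate 1, 2 or 3 it was called, at -0.21, -0.38 and -0.33 (adjusted p = 0.00864, 0.0391 and 0.0395). The ratio of probe 26776 was below that of probe 23389 by 0.32 on average, a difference of -0.32 ± 0.52 (SD) with 7 of 9 arrays below 0 (exact sign-flip permutation p = 0.102). Most like probe 26776 in its dye-corrected ratios were Gli-Z5 (r = 0.893), LOC100049044 (r = 0.848) and LOC100049049 (r = 0.839), and most like probe 23389 was SH6.2 (r = 0.932). Their own changes over the mean of the lines were 0.02, -0.055, -0.395 and 0.18. Each r was picked as among the highest of 542 genes over 9 arrays, so it cannot show a shared course.

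**Figure D3:**
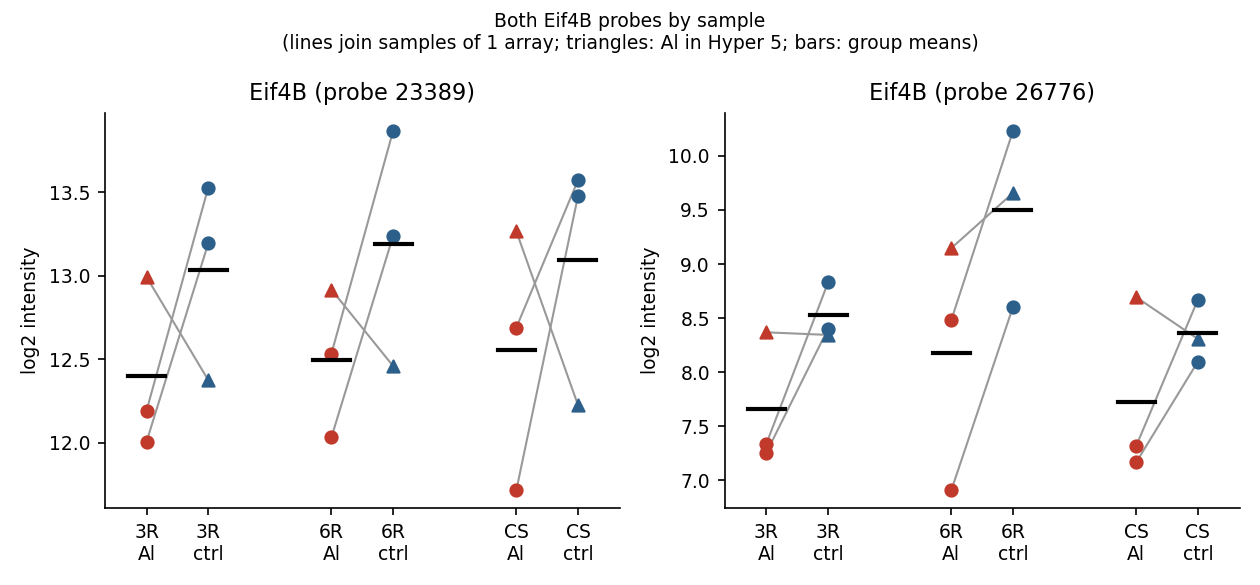
Log2 intensity (y axis) of probes 23389 (left) and 26776 (right) of Eif4B in each sample by line and treatment, with lines joining the samples of 1 array, triangles where the Al sample was in Hyper 5 and bars at the group means. In the left panel the lines with triangles run down and the others up, and in the right panel 7 of 9 run up to the control sample.

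TEF1, the elongation factor, had log2 intensities of 12.02 to 15.53 over its 6 probes and all samples, near the highest value of the table. Of its 6 probes, which are repeated readings of 1 gene, 0 fell in 3R, 3 in 6R and 2 in CS, and over the mean of the lines 4 fell, all by limma, where 7.19% of all rows fell in 3R, 13.3% in 6R, 11.4% in CS and 19.0% over the mean. The median change of the 6 probes was -0.07 in 3R, -0.49 in 6R and -0.50 in CS. Of the 6 histone probes, the markers of dividing cells, 3 averaged over 6.5 in each group, so medians over them include dim probes. The 6 histone probes had median changes of -0.08 in 3R, -0.30 in 6R and -0.22 in CS, with 1 of them called, lower, in 6R. Their sample means were 9.42 to 9.83 in 3R Al and 9.58 to 10.02 in 3R control, 8.76 to 9.76 in 6R Al and 9.58 to 9.91 in 6R control, and 8.94 to 9.74 in CS Al and 9.39 to 9.90 in CS control samples. The part of dividing cells in the TEF1 values was not tested. Probe 7089 read 14.15, 14.77 and 14.49 in Al samples of 3R, against 14.77, 14.30 and 15.25 in control samples. In 6R it read 14.56, 13.46 and 13.23 in Al samples, against 14.28, 14.49 and 14.70 in control samples, and in CS 13.56, 14.13 and 13.38 in Al samples, against 14.78, 13.69 and 14.89 in control samples. Al and control samples overlapped in all lines, and in each line the pair with Al in Hyper 5 was the one with the Al sample on top.

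The fall of TEF1 probe 7089 was 0.49 ± 0.13 in 6R (SE, n = 3 arrays, 1.41-fold, adjusted p = 0.024 in limma) and 0.52 ± 0.13 in CS (1.43-fold, adjusted p = 0.0232 in limma). In 3R its change was -0.06 (95% interval -0.35 to 0.24). Probe 1764 fell by 0.66 ± 0.16 in 6R (1.58-fold, adjusted p = 0.0204) and by 0.63 ± 0.16 in CS (1.54-fold, adjusted p = 0.0288), and its change in 3R was -0.04 (95% interval -0.42 to 0.34). Probe 6599 fell by 0.56 ± 0.15 in 6R (adjusted p = 0.0278) and changed by -0.48 in CS (adjusted p = 0.0574) and by -0.02 in 3R. These 3 probes gave nearly the same course over the arrays, with pairwise correlations of dye-corrected ratios of 0.926 to 0.969 over 9 arrays.

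The remaining TEF1 probes were not called in any line. Probe 24578 changed by -0.08 in 3R, -0.26 in 6R and -0.28 in CS, and probe 42612 by -0.16, -0.48 and -0.54 in the same lines. Probe 44343 changed by -0.50 in 3R (adjusted p = 0.0618), -0.42 in 6R and -0.26 in CS, so that its change was numerically strongest in the line where probes 1764, 6599 and 7089 stayed near 0. Its ratios correlated with those of the 3 at -0.157 to -0.399. Over the mean of the lines, probe 1764 fell by 0.44 ± 0.10, probe 6599 by 0.35 ± 0.09, probe 7089 by 0.36 ± 0.08 and probe 44343 by 0.39 ± 0.09 (adjusted p from 0.00759 to 0.0164 in limma). The difference of responses between 3R and CS was 0.59 at probe 1764 (95% interval 0.06 to 1.12), 0.46 at probe 6599 (-0.03 to 0.94) and 0.46 at probe 7089 (0.05 to 0.87), and no TEF1 probe passed over all rows (adjusted p of 0.386 and above). The lines are therefore not shown to differ in the response of TEF1.

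As deposited, the TEF1 ratios followed the dyes. At 5 of 6 probes the ratio was below 0 in all 6 arrays with Al in Cy3 and above 0 in all 3 arrays with Al in Hyper 5, and at probe 44343 it was below 0 in all 3 arrays with Al in Hyper 5. At probe 24578 the ratios ran from -2.22 to -1.33 with Al in Cy3 and from 1.03 to 1.52 with Al in Hyper 5, a dye difference of -2.91 ± 0.20 (adjusted p = 3.52e-05 in limma). A dye difference was called for 9 of 11 members, all 6 TEF1 probes among them, where 39.6% of all rows were called, and the median size over all rows was 0.27. At the 5 probes whose sign followed the dye, the dye difference ran from -2.91 to -1.50, larger in size than the fitted changes, and at probe 44343 it was 0.74 beside a mean change of -0.39. Without the dye term the mean changes were -0.77 at probe 1764, -0.62 at probe 6599 and -0.60 at probe 7089, none of them called. The exact sign-flip permutation test of the deposited ratios gave p from 0.0586 to 0.18 for the 6 probes before adjustment.

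**Figure D4:**
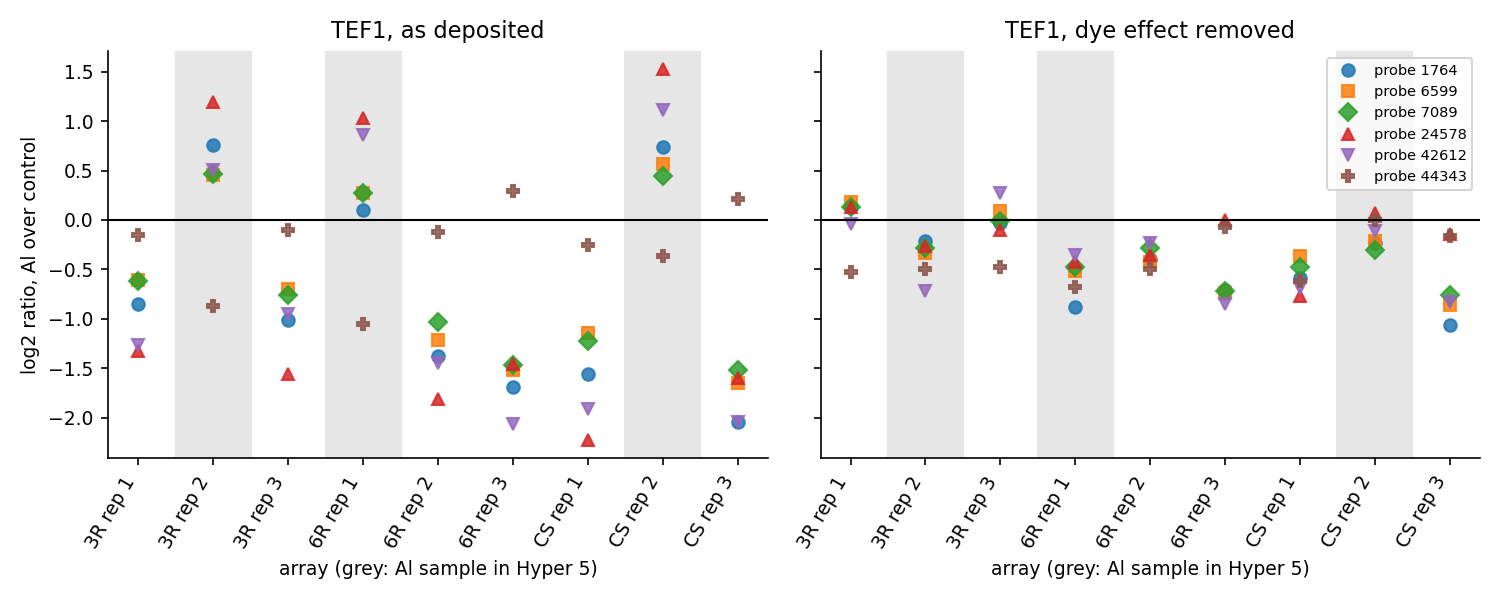
Log2 ratio of Al over control (y axis) at the 6 TEF1 probes (symbols) in each of the 9 arrays (x axis), as deposited (left) and with the dye effect removed (right), with grey bands behind the arrays that had Al in Hyper 5. As deposited, 5 probes sit above 0 in the grey bands and below 0 elsewhere, whereas after it all values lie between -1.06 and 0.27.

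None of the 5 TEF1 calls within a line held without replicate 1 or without replicate 3 of that line. In 6R, leaving out replicate 1 or 3 ended the calls of probes 1764, 6599 and 7089 (adjusted p from 0.0685 to 0.25), with changes between -0.38 and -0.64. Without replicate 2 of 6R, probe 6599 alone of these was lost (-0.63, adjusted p = 0.0623). In CS, leaving out replicate 1 or 3 ended the calls of probes 1764 and 7089 (-0.65 and -0.53, and -0.41 and -0.39). Over the mean of the lines, 3 member probes were called without replicate 2 of 3R and without replicate 1 of 6R, and 9 without replicate 2 of CS, set against 6 with all arrays. Of all 45220 rows, 13154, 13276 and 15496 were called in these settings, set against 16392 with all arrays.

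Levels of TEF1 were higher in Al samples of 3R than of CS at probe 7089, at 14.47 ± 0.31 in 3R and 13.69 ± 0.39 in CS (SD, n = 3 each). The log2 difference was 0.78 ± 0.20 (adjusted p = 0.0371 in limma). It was called in 3 of 13 alternative settings, with adjusted p from 0.0374 to 0.481. Without replicate 1 or 3 of 3R it was 0.81 and 0.64, and without replicate 1, 2 or 3 of CS it was 0.84, 0.78 and 0.74, with none of these 5 called. Probes 1764, 6599 and 42612 had differences of 0.67, 0.83 and 0.95 that did not pass (adjusted p of 0.052 and above). In control samples, probe 7089 averaged 14.77 ± 0.47 in 3R, 14.49 ± 0.21 in 6R and 14.45 ± 0.67 in CS, with no TEF1 probe called between any lines.

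Rows most like TEF1 in their dye-corrected ratios were named LOC numbers. LOC543072 was among the 3 closest for probes 6599 (r = 0.945), 7089 (r = 0.936) and 42612 (r = 0.957), and its change over the mean of the lines was -1.16. For probe 1764 the closest was LOC542901 (r = 0.976), for probe 24578 LOC543093 (r = 0.972) and for probe 44343 LOC778411 (r = 0.962), each over 9 arrays. The closest rows differed between the TEF1 probes, apart from the group that shared LOC543072. Each r was picked as among the highest of 542 genes, so these rows cannot show a shared course. Against the TEF1 probes 1764, 6599 and 7089, the ratios of U2AF65a ran the other way, with correlations of -0.743, -0.697 and -0.696 over 9 arrays that share 3 lines. With the other TEF1 probes the correlation of U2AF65a was -0.075 at probe 24578, -0.305 at probe 42612 and 0.454 at probe 44343.

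RPL9 and RPS29, the ribosomal protein genes, lay near the floor in every group. RPL9 read 5.98, 6.18 and 6.08 in Al samples of 3R, against 6.14, 6.06 and 6.12 in control samples, and over all 18 samples it stayed between 5.94 and 6.18. RPS29 read 6.17, 6.31 and 6.08 in Al samples of CS, against 6.20, 6.08 and 6.01 in control samples, and over all samples it stayed between 5.99 and 6.31. No change with Al was called for either gene in any line: over the mean of the lines the change was -0.02 (95% interval -0.11 to 0.06) for RPL9 and 0.05 (-0.04 to 0.14) for RPS29. The table has no detection call. At such intensities a fall of these transcripts, or a rise that stayed near the floor, was not detectable, so the intervals do not bound how the genes respond. The closest rows in ratio were LOC100136980 for RPL9 (r = 0.836) and LOC606351 for RPS29 (r = 0.884). Each r is the highest among 542 genes over 9 arrays, for ratios near the floor, so it cannot show a shared course.

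The other translation genes found by a fixed list of symbol prefixes are eIF-2-beta (5 probes), eIF4E (1 probe) and TCTP (2 probes). They were chosen with earlier results of these data known. eIF-2-beta is the beta subunit of eIF2, eIF4E binds the mRNA cap, and TCTP is the translationally controlled tumour protein homologue. Of these 8 probes, 2 fell in 3R, 3 in 6R and 3 in CS, and 4 fell over the mean of the lines, with none higher, where the lower calls over all rows were 7.19% in 3R, 13.3% in 6R, 11.4% in CS and 19.0% over the mean. Their median change over the mean of the lines was -0.23, beside -0.006 over all rows. TCTP lay near the floor at both probes, with no call.

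All calls within lines came from eIF-2-beta, at 3 of its 5 probes. Probe 32852 read 12.74, 13.14 and 11.86 in Al samples of 3R, against 13.22, 13.66 and 12.48 in control samples. In 6R it read 13.26, 11.71 and 12.71 in Al samples, against 13.91, 12.34 and 13.44 in control samples, and in CS 11.89, 13.23 and 12.61 in Al samples, against 12.49, 13.66 and 13.61 in control samples. The groups overlapped, yet the Al sample was the lower one of its array in 9 of 9 arrays, whichever dye it had.

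Probe 32852 of eIF-2-beta fell by 0.51 ± 0.10 in 3R (1.43-fold, adjusted p = 0.0119 in limma), by 0.64 ± 0.10 in 6R (1.56-fold, adjusted p = 0.00219 in limma) and by 0.65 ± 0.10 in CS (1.57-fold, adjusted p = 0.00239 in limma). Probe 39297 fell by 0.46 in 3R, 0.60 in 6R and 0.58 in CS (adjusted p from 0.00678 to 0.0362). Probe 4699 fell by 0.77 in 6R and 0.79 in CS, and its change in 3R was -0.56 (adjusted p = 0.0521). Over the mean of the lines, probe 4699 fell by 0.70, probe 32852 by 0.60 and probe 39297 by 0.55, each with the ratio below 0 in 9 of 9 arrays as deposited (exact sign-flip permutation p = 0.00391, the smallest possible). After adjustment over all rows, that test called 7944 of 45220 rows. None of these 3 probes had a called dye difference, with values of 0.09, -0.15 and -0.23. The remaining eIF-2-beta probes, 4697 and 44553, changed by -0.21 and -0.24 (adjusted p = 0.0861 and 0.192), and both had a called dye difference, of 0.77 and 1.11.

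The cap-binding factor gene eIF4E fell by 0.20 ± 0.06 over the mean of the lines (adjusted p = 0.0322 in limma), with ratios below 0 in 6 of 9 arrays. As deposited, its mean ratio was -0.11 (exact sign-flip permutation p = 0.371), and its called dye difference of 0.54 (adjusted p = 0.00764 in limma) was larger than the change. It was not called in any single line. In Al samples its level averaged 10.61 ± 0.82 in 3R, 11.71 ± 0.45 in 6R and 11.58 ± 1.28 in CS, differences that did not pass between lines.

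**Figure D5:**
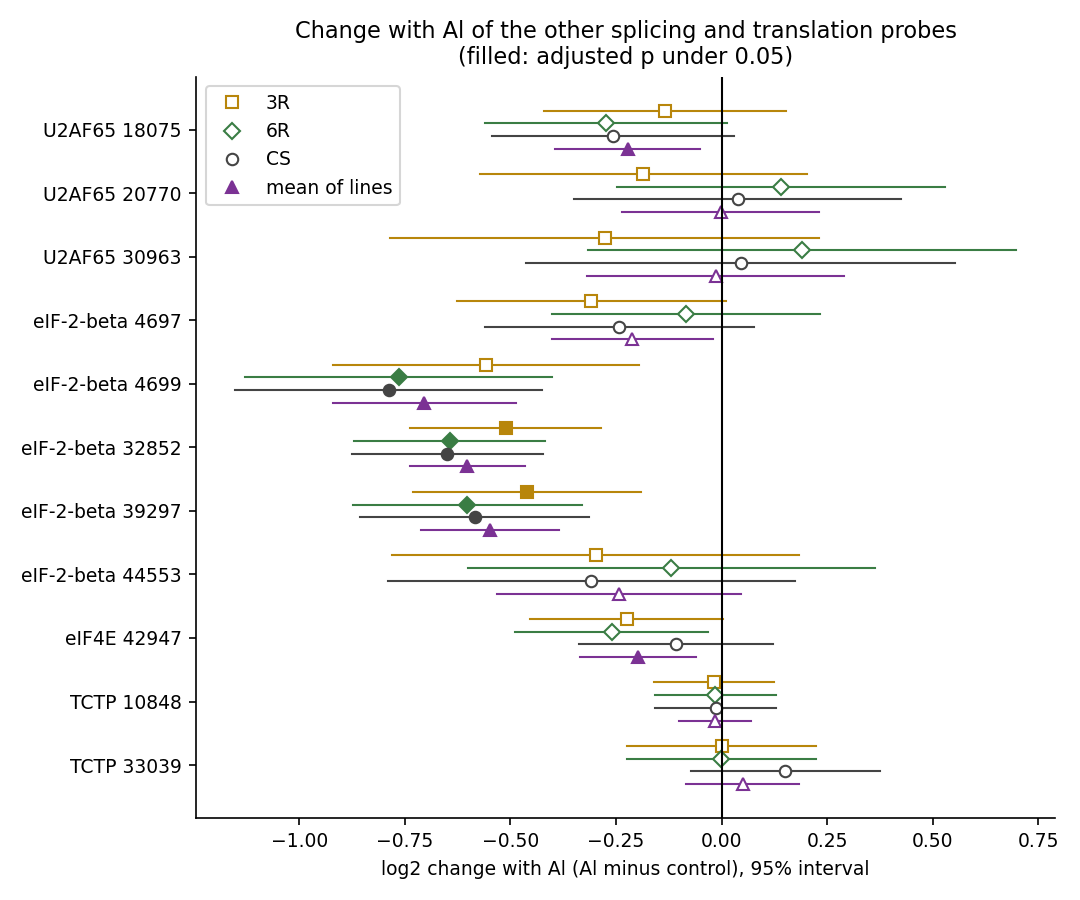
Log2 change with Al (x axis, Al minus control, 95% interval of the limma fit) of the probes of U2AF65, eIF-2-beta, eIF4E and TCTP (rows), for 3R, 6R, CS and the mean of the lines, with filled symbols where the adjusted p was under 0.05. Probes 4699, 32852 and 39297 of eIF-2-beta lie left of 0 in every line, from -0.46 to -0.79, while the intervals of both TCTP probes include 0.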

How the data were processed

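The deposited values are log2 intensities, 1 column per channel of 9 two-colour arrays, and the authors treated each channel as a sample per the labels. The submitters' processing notes name limma. How background and scaling were handled is not given in the sources used here. Sorted values of samples of a line differ by at most 0.00641, and those of different lines by up to 0.355. The table has no detection calls and no weights, and no row was left out of the tests. The number of arrays, 3 a line, limits the precision, and p-values measure the spread between these pooled samples. Replicates 1 and 2 of 6R are numbered the other way round in the scanner file names than in the titles, and the titles were used. The 18 columns all belong to samples of the study, with 0 left unused.

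From these, the within-array log2 ratio was fitted in limma 3.58.1 (R 4.3.3) with 3 line means and 1 dye term, which is a fit with the array as block (5 residual degrees of freedom, 2.61 added by the prior). The labels give the shared array, and deviations of its 2 samples from the fit of group and dye correlated at 0.722 to 0.855. Levels between lines were fitted on single channels with 6 group means, dye and the array as random block (correlation 0.625, reused where a replicate was left out). Adjusted p are Benjamini-Hochberg over 45220 rows. Fits were tested on simulated data. Sign-flip tests were exact, over 512 flips.

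Named were all member probes, up to 4 probes of smallest p of each list in a comparison, and per member the 3 named genes of highest correlation of dye-corrected ratios (553 annotated genes, 996 rows). Members and lists were chosen with earlier results of these data known. The splicing rule's prefix WSZ matched serpins, which were left out of that list. A RefSeq gene table served for names alone, and no coordinates were used because the files name no genome build. The 4 probe-pair tests were chosen after seeing the data. Alternatives left out the block, the dye term, dim rows (mean under 6.5) or 1 replicate, or changed the slide term, normalization, prior or samples.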

Additional observations from a re-analysis of the deposited data

Results flagged for a closer look

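The response of U2AF65a to Al was smaller in 3R than in CS by a log2 difference of -0.82 (limma, adjusted p = 0.0433 over all rows). It was flagged because this difference between lines passed the threshold in the main fit. Most arrays of 3R and CS lay on different slides, so line and slide cannot be told apart for them. The dye-corrected ratios were 0.66, 0.43 and 0.59 in 3R and 1.07, 1.46 and 1.61 in CS. Among its 12 alternatives, the call held after joint quantile normalization, with dim rows left out and without replicate 1 of CS (limma, adjusted p = 0.0145). It was lost in all others: without any other replicate of 3R or CS, without the block or the dye term, with the slide term and with the trended robust prior.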

How the results depend on the processing

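Across 1734 comparisons of a probe's result with an alternative, 1622 stayed on their side of the threshold, 91 lost a call, 21 gained one and 0 reversed a call. A further 107 of the uncalled ones changed sign. Without the replicate block, member probes called were 0 in 3R, 1 in 6R, 1 in CS, 1 over the mean of the lines and 0 for 3R minus CS, against 2, 5, 4, 6 and 1 with it, and U2AF65a was the one still called in 6R, CS and the mean (adjusted p = 0.00204, 0.00169 and 7.81e-05). Without the dye term the 5 counts were 0, 0, 0, 2 and 0. U2AF65a then missed narrowly in 6R (adjusted p = 0.0641) and CS (0.0651). With slide as a term, 0 were called in 3R, 2 in 6R and 0 for 3R minus CS. Fitted on the arrays of a line alone, 4 were called in 3R, 3 in 6R and 1 in CS. Of all 45220 rows, these fits called 10587 in 3R, 7578 in 6R and 8132 in CS. With a trended robust prior, 0 were called for 3R minus CS, against 688 of all rows. Exact sign flips called 1 over the mean of the lines, against 7944 of all rows. For levels of Al samples, 3R minus CS had 0 calls without the dye term and with the slide term, and 1 with dim rows left out, with the trended prior or with Al samples alone. In the same order, calls over all rows were 1745, 793, 2184 of the 26958 rows kept, 2715 and 2340. 3R minus 6R had 0 without the dye term, against 998 of all rows. Leaving out 1 replicate at a time gave 0 to 1 calls in 3R, 2 to 4 in 6R, 1 to 5 in CS, 3 to 9 over the mean, 0 to 1 for 3R minus CS, 1 to 2 for Al levels of 3R minus CS and 0 to 1 for control levels of 3R minus 6R (Eif4B probe 26776, -1.53, adjusted p = 0.0219 without 6R replicate 3, over a range of 0.0219 to 1). With 1 replicate left out, calls over all rows ran from 1905 to 3879 in 3R, 6419 to 11370 in 6R and 6803 to 9293 in CS. They ran from 13154 to 16818 over the mean and from 294 to 808 for 3R minus CS. For levels they ran from 1468 to 2455 (Al, 3R minus CS) and from 332 to 460 (control, 3R minus 6R). Over all rows, calls in 3R were 6735, and 735 without the block, 1691 without the dye term and 2093 with the slide term. The same counts were 12214, 2716, 4430 and 6265 in 6R, and 10370, 2388, 3912 and 6704 in CS. Over the mean they were 16392, 6240, 9164 and 13621, and for 3R minus CS 831, 122, 129 and 21. The cause was not tested. RPL9, RPS29 and TCTP cannot be read for want of signal over the floor.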

Other observations

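Of the serpin genes matched by the prefix WSZ, Serpin-Z2B rose over the mean of the lines by 0.77 ± 0.12 (limma, adjusted p = 0.00114, above 0 in 9 of 9 arrays) and WSZ2a by 0.51 ± 0.06 (adjusted p = 0.000278, 7 of 9 arrays). WSZ1c changed by 0.002 (95% interval -0.09 to 0.10).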
